A study of Mus musculus with 16 samples.

Results

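The T cell receptor (TCR) alpha and delta locus was represented by 200 of the 52997 gene rows in the deposited count table, chosen by symbol alone. These were 128 variable alpha segments (Trav), 60 joining alpha segments (Traj), 6 variable delta segments (Trdv), 2 diversity delta segments (Trdd), 2 joining delta segments (Trdj) and the constant genes Trac and Trdc. All 200 matched by name in GENCODE M21 on build GRCm38 (mm10), where they lie on chromosome 14 between 52427928 and 54224206, a span of 1796 kb. Of the 200 rows, 152 had at least 1 count in libraries of sorted regulatory T cells (Tregs) and 48 had none.

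A developing T cell builds its alpha chain by joining a Trav segment to a Traj segment, which is then spliced to the constant gene Trac. The delta genes lie between the Trav and Traj arrays, so a Trav to Traj join on an allele removes the intervening delta genes from that allele. Alpha joining can be repeated on an allele, with later joins using Trav segments farther upstream and Traj segments nearer to Trac. Tregs are alpha-beta T cells that express the transcription factor Foxp3 and restrain immune responses, and a population of them gathers in injured skeletal muscle.

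The series holds 16 RNA-seq libraries from B6 mice aged 6 to 8 weeks that did or did not carry the mTreg24 TCR transgene. Tregs were sorted from mice with a Foxp3 GFP reporter, as Vβ8+ Tregs from transgenic (Tg) mice and as total Tregs from mice labelled TCR-tg- (here WT), so that genotype and gate changed together. The series' text places the sort 3 days after cardiotoxin injury of muscle. The groups were WT muscle, WT spleen, Tg muscle, Tg spleen of injured mice and Tg spleen of uninjured mice, with 2 libraries each. The injury state of the WT spleen donors is given only by that general statement. Whole muscle was taken 8 days after injury from Tg and WT mice without a stated reporter, with 3 libraries each. The sources used here do not give the promoter that drives the transgene, the segments it contains or whether a library pooled several mice.

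The 10 Treg libraries held 1986700 to 9116800 counts each, and the 6 of whole muscle 5095999 to 7075420. Levels below are counts scaled to library size (CPM) scaled by the trimmed mean of M values (TMM), and a library at 0 allows up to 3 counts, which is at most 1.44 CPM in the shallowest Treg library. All 5 Treg markers (Foxp3, Il2ra, Ctla4, Ikzf2 and Cd4) were detected in every Treg group, with a summed level between 3304 and 7073 CPM. Summed levels of B cell markers were between 15.3 and 85.5 CPM, of macrophage markers between 4.75 and 102 CPM, of muscle fibre markers between 2.47 and 9.92 CPM, and of the CD8 genes Cd8a and Cd8b1 at most 28.8 CPM in the Treg libraries. In bulk libraries such as these, fewer cells of a type and less RNA per cell cannot be told apart.

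Sequence identity among variable segments limits what a row of counts can say, because the reads were 25 bases long at each end. Of the 128 Trav rows, 73 carry the letter d or n that marks copies from a large duplication inside the locus. These copies held 6.06% of all Trav counts in Tregs, and 44 of the 73 had no count, against 3 of the 55 other Trav rows. The median share of 25-base windows found in no other GENCODE transcript was 0% in the 47 Trav rows without a Treg count and 32.5% in the 81 rows with one. Every Traj row was unique in all its windows. The sources used here do not say how reads matching several rows were counted, so a Trav row stands for a segment and any copy it shares reads with.

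The leading variable segment of Tg Tregs was Trav9-4 (chromosome 14, 53676141 to 53676630), with 20.2% of its windows unique. Bases 141 to 340 of its coding sequence are shown with those of its n copy, Trav9n-4 (53294341 to 53295030), because this comparison sets how well the 2 rows can be separated. Capitals mark the 10 bases of this stretch at which they differ. Over the whole coding sequence the 2 were 96.8% identical, with 11 mismatches and an identical run of up to 130 bases.
Trav9-4: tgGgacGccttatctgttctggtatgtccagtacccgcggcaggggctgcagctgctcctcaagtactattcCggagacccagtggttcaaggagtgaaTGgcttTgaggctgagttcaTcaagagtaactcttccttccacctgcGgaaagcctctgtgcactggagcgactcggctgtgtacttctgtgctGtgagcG
Trav9n-4: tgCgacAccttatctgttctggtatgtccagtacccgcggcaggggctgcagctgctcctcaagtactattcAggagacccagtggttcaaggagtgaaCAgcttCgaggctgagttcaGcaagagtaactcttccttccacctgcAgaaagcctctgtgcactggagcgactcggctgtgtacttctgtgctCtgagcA

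The joining segments on which the results turn are short enough to show whole. Capitals mark the stretch that codes for the Phe-Gly-any-Gly motif of joining segments, searched on the coding strand. The stretch was present in 42 of 51 rows of functional joining type and in 1 of 9 pseudogene rows. Traj39 (54179962 to 54180024) had the highest mean share of Traj counts over the 6 Tg Treg libraries. Traj2 (54217836 to 54217901) was second to it in Tg muscle, and Traj21 (54198790 to 54198846) was the joining segment that differed between WT tissues. Traj58 to Traj61 (54155005 to 54157342) stand at the delta gene end of the array, and among them only Traj58 has the stretch. Traj60 and Traj61 are annotated as pseudogenes.
Traj39: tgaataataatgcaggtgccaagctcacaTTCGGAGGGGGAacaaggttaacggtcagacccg
Traj2: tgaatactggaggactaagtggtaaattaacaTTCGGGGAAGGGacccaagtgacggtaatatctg
Traj21: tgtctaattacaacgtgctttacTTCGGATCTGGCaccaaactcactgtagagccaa
Traj58: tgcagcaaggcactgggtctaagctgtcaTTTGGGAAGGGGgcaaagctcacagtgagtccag
Traj59: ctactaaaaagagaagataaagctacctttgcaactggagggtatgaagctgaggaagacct
Traj60: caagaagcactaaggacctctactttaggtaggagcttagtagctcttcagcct
Traj61: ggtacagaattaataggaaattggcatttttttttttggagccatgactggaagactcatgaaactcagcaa

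At most 5 members passed the test in any comparison, and most rows were too sparse to enter it. The filter on low counts left 86 of the 200 members in the Treg fit (45 Trav, 36 Traj, 3 Trdv, Trac and Trdc) and 2 in the whole muscle fit (Trac and Trav9-4). By edgeR's quasi-likelihood test with Benjamini-Hochberg adjustment at 0.05, WT muscle against WT spleen Tregs gave 4 called members, 3 higher and 1 lower, where 16.2% of 13188 genes were called (9.38% higher, 6.87% lower). Tg muscle against injured Tg spleen gave 3, all higher, where 7.38% of genes were called (4.83% higher, 2.55% lower). Against WT muscle, Tg muscle gave 5, all higher, where 0.318% of genes were called (0.121% higher, 0.197% lower). Against WT spleen, injured Tg spleen gave 4, all higher, where 1.3% of genes were called (0.887% higher, 0.417% lower). Injured against uninjured Tg spleen gave 0, where 0% of genes were called. By unadjusted p under 0.05 that last comparison held 5 members and 236 genes, and DESeq2 and limma-voom also called 0 members. In whole muscle both tested members were higher in Tg, where 0.0323% of 12377 genes were called. Both passed the filter on low counts only through the Tg libraries, so this count of members is a description. Of the 86 members tested in Tregs, 4.65% were called between WT tissues and 3.49% between Tg muscle and injured Tg spleen. For genotype 5.81% were called in muscle and 4.65% in spleen. These genotype counts are in part a description. Both include Trav9-4, chosen for its share in the same Tg libraries, and Trdv4, which passed the filter on low counts only through Tg libraries. The muscle count also includes Traj60, which passed the filter in the same way. The comparisons share groups with each other, so they are not independent.

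The constant gene of the alpha chain, Trac (chromosome 14, 54220521 to 54224206), rose in Tg against WT Tregs and in muscle against spleen Tregs of both genotypes. Trac stood at 915 and 1169 CPM in the WT muscle libraries and at 631 and 609 CPM in the WT spleen libraries. Reads from the transgene and from the animals' own locus cannot be told apart in this row. In Tg, Trac stood at 2855 and 3436 CPM in muscle, 1140 and 1226 CPM in injured spleen, and 1250 and 1587 CPM in uninjured spleen. Every Tg muscle library was above every other Treg library, and every WT spleen library was below every other. The log2 difference was 0.75 ± 0.15 (SE, n = 2 per group) for WT muscle against WT spleen (edgeR adjusted p = 0.0037) and 1.41 ± 0.15 for Tg muscle against injured Tg spleen (edgeR adjusted p = 2.91e-05). For genotype it was 1.59 ± 0.15 in muscle (edgeR adjusted p = 6.91e-05) and 0.93 ± 0.15 in spleen (edgeR adjusted p = 0.00521). The spleen call was lost without the second WT spleen library (edgeR adjusted p = 0.0711) or without the second injured Tg spleen library (edgeR adjusted p = 0.0557). Markers of other cells differed along the same tissue contrast. Macrophage markers summed to 4.75 to 8.46 CPM in WT muscle and 47.3 to 65.9 CPM in WT spleen, and to 14 to 20.6 CPM in Tg muscle and 96.1 to 102 CPM in injured Tg spleen. Treg markers summed to 5666 to 6393 CPM in WT muscle and 3552 to 3591 CPM in WT spleen, and to 6493 to 7073 CPM in Tg muscle and 3363 to 3498 CPM in injured Tg spleen. The part of these differences in the tissue results was not tested. The difference between the muscle effects of the 2 genotypes, tested as an interaction chosen after seeing the data, was 0.66 ± 0.21 for Trac and did not pass (edgeR adjusted p = 0.366).

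Set against the genes of the CD3 signalling chains, which assemble with every alpha-beta receptor, Trac varied more between groups. The summed level of Cd3d, Cd3e and Cd3g was between 1840 and 2440 CPM in all 10 Treg libraries. Trac counts per summed CD3 count were 0.497 and 0.526 in WT muscle, 0.288 and 0.304 in WT spleen, and 1.29 and 1.56 in Tg muscle. The ratio was 0.484 and 0.557 in injured Tg spleen and 0.512 and 0.669 in uninjured Tg spleen. Among Treg groups only Tg muscle was above 1, and WT muscle overlapped with the Tg spleen groups.

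Trav9-4 counts made up most Trav counts in Tg Tregs, and they were more abundant in Tg muscle than in Tg spleen. The level was 1209 and 1501 CPM in Tg muscle, 368 and 397 CPM in injured Tg spleen and 447 and 427 CPM in uninjured Tg spleen. In WT it was 10.4 and 11.7 CPM in muscle and 11.1 and 9.08 CPM in spleen, so the Tg and WT ranges lay far apart. Trav9-4 was chosen as the Trav row with the highest mean share in Tg Tregs, so its excess over WT Tregs is a description. That log2 difference was 6.93 ± 0.18 (SE) in muscle and 5.28 ± 0.18 in spleen. The choice used Tg muscle and Tg spleen together, and between them the log2 difference was 1.83 ± 0.14, higher in muscle (edgeR adjusted p = 1.32e-06). WT Tregs had no such tissue difference past the threshold (0.18 ± 0.20, edgeR adjusted p = 0.601). The difference between the genotypes' tissue effects was 1.65 ± 0.24 (edgeR adjusted p = 0.0188, where 0.136% of 13188 genes were called, 0.0531% higher and 0.0834% lower). That test was chosen after seeing the data, and its call was lost without the second WT spleen library (edgeR adjusted p = 0.0581), the first injured Tg spleen library (edgeR adjusted p = 0.105) or the second injured Tg spleen library (edgeR adjusted p = 0.0545). Trav9-4 counts per Trac count were 0.423 and 0.437 in Tg muscle, 0.323 and 0.324 in injured Tg spleen and 0.358 and 0.269 in uninjured Tg spleen. The copies stayed low throughout, with Trav9n-4 between 0.678 and 3.37 CPM and Trav9d-4 at no more than 0.452 CPM.

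**Figure D1:**
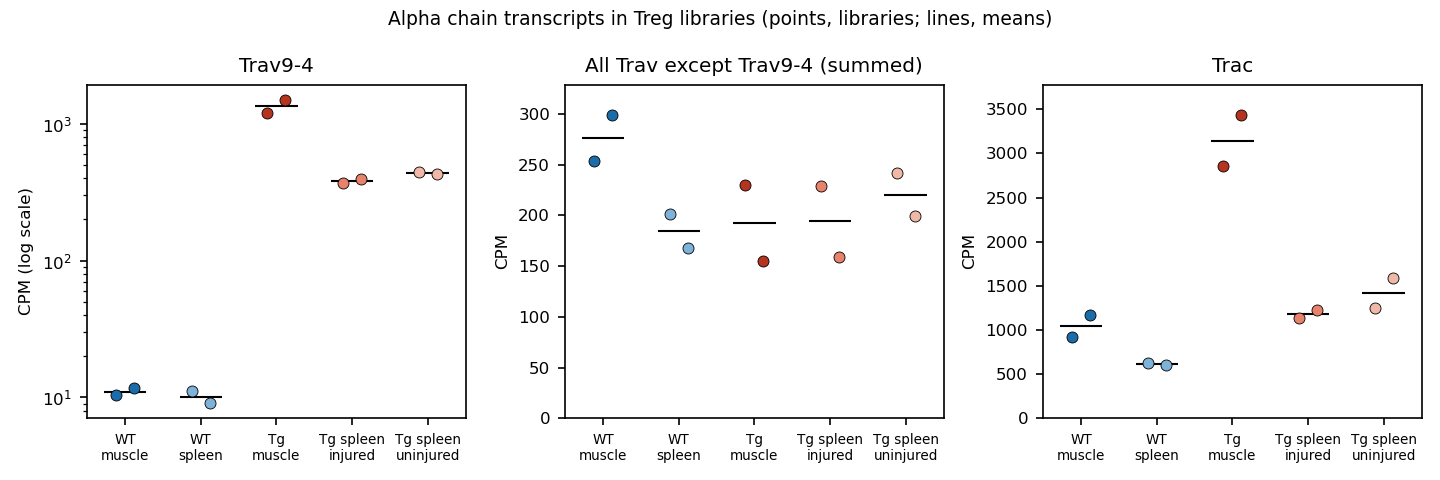
CPM of Trav9-4 (log axis), of all other Trav rows summed and of Trac in each Treg library, with points for libraries and lines for group means (n = 2). Trav9-4 and Trac are highest in the Tg muscle libraries, while the other Trav rows sum to between 155 and 299 CPM in every library.

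Segments other than Trav9-4 were also counted in Tg Tregs, at a summed level near that of WT spleen. Summed over the other Trav rows, the level was 230 and 155 CPM in Tg muscle, 229 and 159 CPM in injured Tg spleen and 242 and 199 CPM in uninjured Tg spleen. The same sum was 253 and 299 CPM in WT muscle and 201 and 168 CPM in WT spleen, so all Tg groups overlapped with WT spleen. Within muscle, both Tg libraries lay below both WT libraries. As a share of each library's Trav counts, the other rows made up 16% (Wilson 95% interval 14.8 to 17.2) and 9.35% (8.68 to 10.1) in Tg muscle. They made up 38.4% (36.6 to 40.3) and 28.6% (26.9 to 30.5) in injured Tg spleen, and 35.1% (33.0 to 37.2) and 31.8% (30.0 to 33.7) in uninjured Tg spleen. These intervals cover counting error only. Tg muscle lay below both spleen groups without overlap, with a difference of −20.9 percentage points (muscle minus injured spleen). An exact two-sided permutation test of 2 against 2 libraries cannot go below p = 0.333, and the share was not tested by a model.

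The other Trav rows of Tg Tregs were spread over fewer segments than those of WT Tregs, a description with no test. After thinning to 419 counts per library, the effective number of segments (the exponential of Shannon entropy) was 40.9 and 36.3 in WT muscle and 41 and 43.8 in WT spleen. It was 26.6 and 28.3 in Tg muscle, 29.9 and 27.4 in injured Tg spleen, and 24.7 and 31.8 in uninjured Tg spleen, all below WT. Trav17 (53806639 to 53807115), whose windows are all unique, was the most used of the other segments in 5 of the 6 Tg libraries. Its share of the other Trav counts was 15.3% and 15.7% in Tg muscle, 12.7% and 14.1% in injured Tg spleen and 18.1% and 6.82% in uninjured Tg spleen. In WT it was 1.61% and 3.16% in muscle and 8.59% and 4.03% in spleen, so 5 of 6 Tg libraries lay above all 4 WT libraries. Trav17 as a gene did not pass the test for Tg against WT in muscle (edgeR adjusted p = 0.281) or spleen (edgeR adjusted p = 0.539). In the last uninjured Tg spleen library the leading other segment was Trav3-3, at 10.4%.

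**Figure D2:**
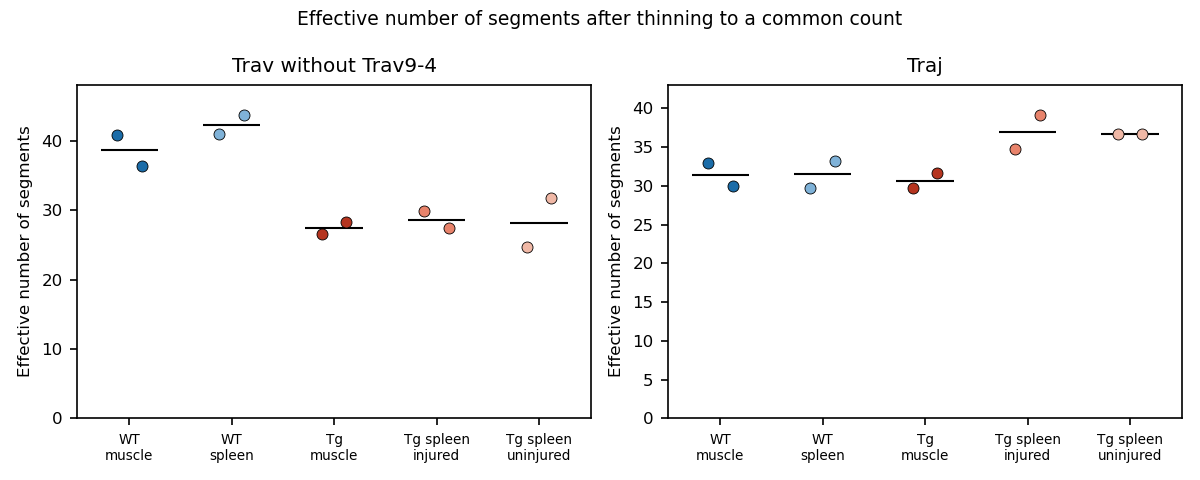
Effective number of Trav segments other than Trav9-4 and of Traj segments in each Treg library after thinning every library to the smallest total (419 Trav and 269 Traj counts), with points for libraries and lines for means (n = 2). For Trav the 6 Tg libraries lie between 24.7 and 31.8, below the 4 WT libraries, while for Traj the Tg muscle libraries (29.7 and 31.6) overlap with WT and the 4 Tg spleen libraries (34.7 to 39.1) lie above it.

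The other Trav rows also differed in position. Their mean distance upstream of Trac, weighted by counts, was 739 and 772 kb in WT muscle and 759 and 810 kb in WT spleen. In Tg it was 690 and 663 kb in muscle, 648 and 629 kb in injured spleen and 609 and 658 kb in uninjured spleen. Segments within 600 kb of Trac held 39.0% and 36.4% of these counts in WT muscle and 34.1% and 34.3% in WT spleen. They held 48.4% and 52.6% in Tg muscle, 52.9% and 48.5% in injured Tg spleen, and 53.0% and 46.1% in uninjured Tg spleen. Every Tg library thus had a larger share of these counts in rows near Trac than every WT library. Trav17, at 414 kb, is among those rows, and the part of single segments in this shift was not tested. Since rows share reads with their copies, the position of a row need not be that of the segment used.

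In WT Tregs the Trav counts were spread over many segments in both tissues. Shannon evenness over the 81 Trav rows with a Treg count was 0.860 and 0.838 in muscle and 0.848 and 0.870 in spleen, on a scale where 1 is equal use. The groups overlapped, and the mean difference was −0.0099 (muscle minus spleen), smaller than the SD of 0.0153 in muscle and 0.0162 in spleen (n = 2 each). Depth differed between these libraries. After thinning to 442 Trav counts each, the effective number of segments was 41.6 and 37.2 in muscle and 41.4 and 44.0 in spleen, which overlap, while without Trav9-4 both muscle libraries lay below both spleen libraries, as given above. Shares are of counts and are not corrected for length. In WT muscle the leading Trav rows were Trav13-1 at 7.42% ± 4.80 (SD, n = 2), Trav6-7-dv9 at 5.82% ± 2.04, Trav12-3 at 4.73% ± 0.83, Trav3-3 at 4.05% ± 0.09 and Trav12-2 at 4.0% ± 0.09. In WT spleen they were Trav17 at 5.98% ± 3.06, Trav9-4 at 5.17% ± 0.05, Trav9-2 at 4.40% ± 0.82, Trav3-3 at 4.26% ± 1.97 and Trav12-3 at 3.79% ± 4.09. The top 5 rows together held 26.0% of Trav counts in muscle and 23.6% in spleen. Libraries of the same group shared 69.7% of their Trav use without Trav9-4 in muscle and 64.9% in spleen (the summed smaller share per row), and muscle and spleen libraries shared between 64.2% and 70.0%.

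Trav14-2 and Trav13-1 rose in WT muscle against WT spleen. Trav14-2 (53640701 to 53641225) stood at 7.0 and 4.91 CPM in muscle and at 0.481 and 0.844 CPM in spleen, with 28.7% of its windows unique. Its log2 difference was 3.01 ± 0.89 (SE, edgeR adjusted p = 0.0324). Leaving out either WT spleen library ended the call (edgeR adjusted p = 0.13 and 0.154), as did the compared groups only (edgeR adjusted p = 0.0836) and limma-voom (adjusted p = 0.104). Trav13-1 (53545014 to 53545525) stood at 10.6 and 33.6 CPM in muscle and at 7.21 and 4.64 CPM in spleen. Its log2 difference was 1.96 ± 0.62 (edgeR adjusted p = 0.0454), and 0.90 without the second WT muscle library, which holds the high value (edgeR adjusted p = 0.447). Without the first or the second WT spleen library its adjusted p by edgeR was 0.101 or 0.296, and it was 0.101 in a fit of the compared groups only and 0.0715 by limma-voom. Of the 45 tested Trav rows, 33 had a positive difference, with a median of 0.56 against −0.04 over all genes tested, and 4 of the 86 tested members were called, a smaller share than the 16.2% of all genes.

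Of 36 tested joining segments, 1 passed between WT muscle and WT spleen, and it was lower in muscle. Traj21 stood at 2.94 and 2.33 CPM in WT muscle and at 9.13 and 8.87 CPM in WT spleen, without overlap. It fell by 1.77 on the log2 scale (SE 0.57, edgeR adjusted p = 0.0476). Each of the 4 fits that left out a library ended the call, as did a replicate block. So did DESeq2 (adjusted p = 0.0521), no filter (edgeR adjusted p = 0.124) and the compared groups only (edgeR adjusted p = 0.139). Over all 11 alternatives the difference ran from −1.92 to −1.59. The median log2 difference over the 36 rows was −0.51, and 5 were positive. The summed Traj level was 119 and 49.3 CPM in WT muscle and 129 and 121 CPM in WT spleen, so the second WT muscle library stood apart as the lowest. Mean Traj number, which is high at the delta gene end of the array and low next to Trac, was 23.4 and 21.2 in WT muscle and 23.2 and 24.8 in WT spleen. These overlapped, and the difference of −1.69 (muscle minus spleen) shrank to −0.579 without the second WT muscle library.

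Tg Tregs of muscle and spleen had more Traj counts than WT Tregs. The summed level was 200 and 215 CPM in Tg muscle, 201 and 235 CPM in injured Tg spleen and 198 and 207 CPM in uninjured Tg spleen, all above the WT libraries. Against WT muscle the median log2 difference in Tg muscle was 0.79 over the 36 tested Traj rows, with 32 positive and 1 called, beside a median of −0.01 over all genes. Against WT spleen it was 0.82 in injured Tg spleen, with 33 positive and 0 called, beside a median of 0.00 over all genes. The tested Trav rows did not follow, with medians of −0.84 (14 of 45 positive) in muscle and 0.04 (23 of 45 positive) in spleen. Among the tested Traj rows, Traj58 to Traj61 passed the filter on low counts only through the Tg libraries. The choice of rows thus tilts the Traj medians and positive counts towards Tg, and they are a description. Mean Traj number was 30.6 and 31.1 in Tg muscle, 26.5 and 30.9 in injured Tg spleen and 30.2 and 29.5 in uninjured Tg spleen, all above the WT libraries. The segments Traj61 to Traj41 held 27.7% and 29.8% of Traj counts in Tg muscle 19.1% and 27.4% in injured Tg spleen and 30.4% and 23.2% in uninjured Tg spleen, against 12.5% and 5.97% in WT muscle and 13.0% and 13.4% in WT spleen.

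**Figure D3:**
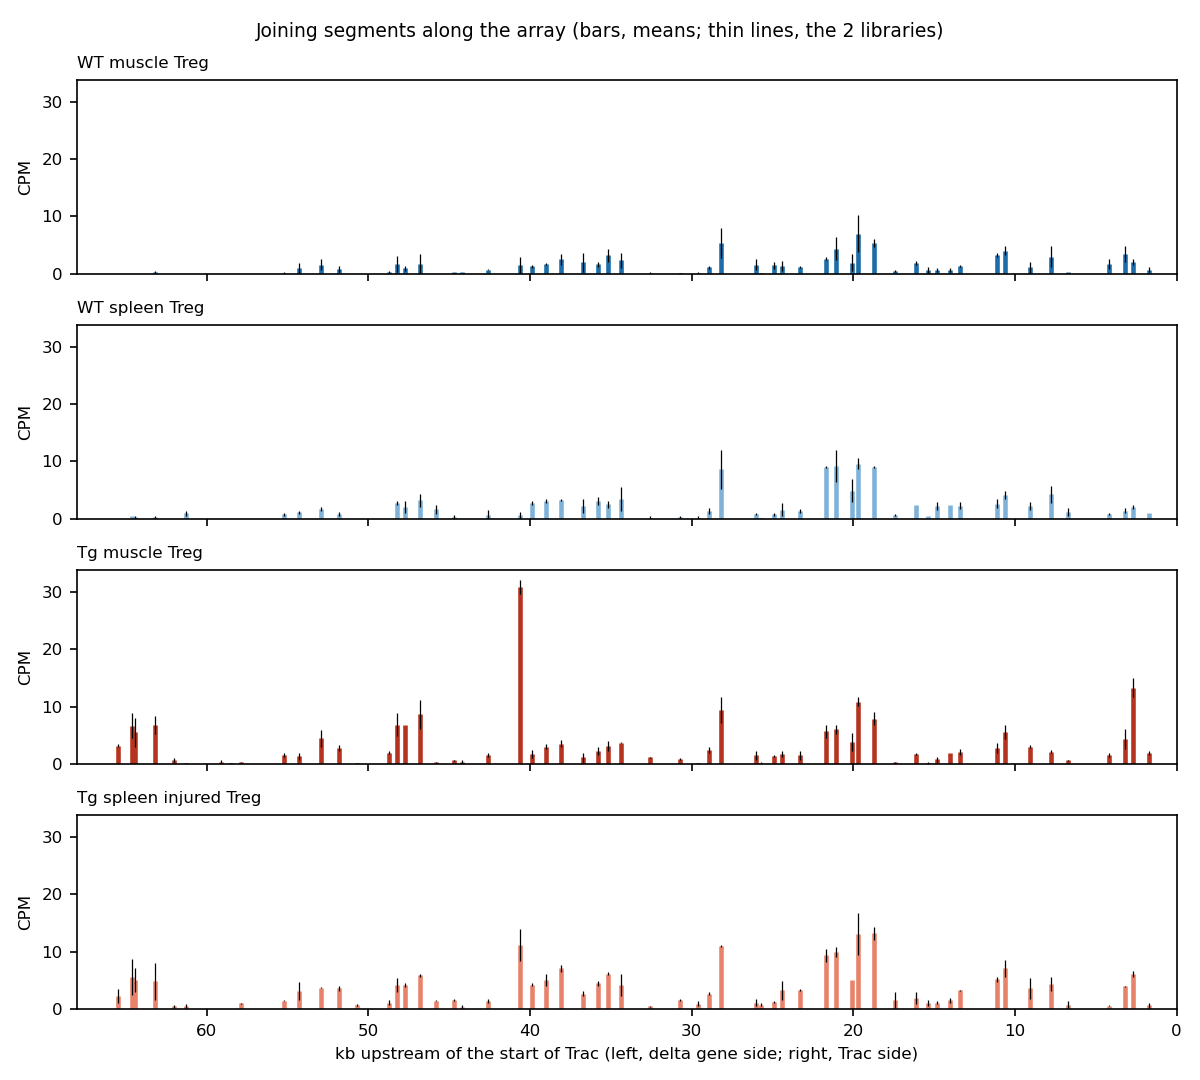
Mean CPM of each joining segment against its distance upstream of Trac in kb, for 4 Treg groups on a common axis, with thin lines from the lower to the higher library (n = 2). Tg groups show counts at the far left, next to the delta genes, where WT groups have almost none, and the tall bar near 40.6 kb in Tg muscle is Traj39.

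Traj39 was the joining segment with the highest mean share over the Tg Treg libraries and was chosen for that. By mean share it ranked first in Tg muscle but not in Tg spleen. There Traj18 (6.18% of Traj counts) led in injured mice and Traj27 (6.05%) in uninjured mice, against 5.05% and 5.90% for Traj39. Single spleen libraries differed. Traj39 led in the second injured (5.92%) and the second uninjured library (7.31%), Traj18 in the first injured (8.35%) and Traj27 in the first uninjured (6.39%). The level of Traj39 was 32.2 and 29.7 CPM in Tg muscle, 8.38 and 13.9 CPM in injured Tg spleen and 8.87 and 15.1 CPM in uninjured Tg spleen. WT muscle had 2.94 and 0.123 CPM and WT spleen 0 and 1.27 CPM. Traj39 held 16.1% (Wilson 95% interval 13.2 to 19.5) and 13.8% (11.7 to 16.3) of Traj counts in Tg muscle. In injured Tg spleen it held 4.18% (3.04 to 5.70) and 5.92% (4.65 to 7.52), so muscle and spleen did not overlap. The share of Traj counts outside Traj39 differed by −9.91 percentage points (Tg muscle minus injured Tg spleen), with 0.333 again the smallest exact permutation p that 2 against 2 libraries allow. As a gene Traj39 passed in none of the comparisons in the fit of all Treg libraries, with a log2 difference of 4.54 ± 0.90 for Tg against WT muscle (edgeR adjusted p = 0.0835), 3.71 ± 1.01 for spleen (edgeR adjusted p = 0.126) and 1.47 ± 0.74 for Tg muscle against injured Tg spleen (edgeR adjusted p = 0.297). Its choice by share in these same Tg libraries makes its excess over WT Tregs a description, and calls of that excess add no support. Such calls came in muscle with no filter on low counts, by limma-voom and with either WT muscle library left out. In spleen they came with no filter and in a fit of the compared groups only. Without the first or the second WT muscle library the muscle difference was 7.65 and 3.38. Tg muscle against injured Tg spleen was called in a fit of the compared groups only (edgeR adjusted p = 0.0179). Trav9-4 held far more of the Trav counts of the same libraries (84.0% and 90.7% in Tg muscle) than Traj39 did of the Traj counts. Traj2, next to Trac, followed at 6.38% ± 0.82 (SD, n = 2) of Traj counts in Tg muscle, with 11.6 and 15.0 CPM against 2.49 and 1.59 CPM in WT muscle (edgeR adjusted p = 0.0846).

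The delta constant gene Trdc and the variable segment Trdv4 rose in Tg over WT Tregs of both tissues. Trdc (54142851 to 54148868), the delta constant gene, stood at 101 and 130 CPM in Tg muscle, 47.8 and 110 CPM in injured Tg spleen and 77.1 and 55.4 CPM in uninjured Tg spleen. WT muscle had 0.904 and 6.26 CPM and WT spleen 3.85 and 4.01 CPM, so every Tg library lay above every WT library. The log2 difference was 4.83 ± 0.66 (SE) in muscle (edgeR adjusted p = 0.0359) and 4.31 ± 0.71 in spleen (edgeR adjusted p = 0.0335). The second WT muscle library held 51 Trdc counts and the first 4, and without the second, the muscle difference was 6.94. The muscle call was lost without the first or the second Tg muscle library (edgeR adjusted p = 0.129 and 0.0915) and in a fit of the compared groups only (edgeR adjusted p = 0.224). The spleen call was lost without the first or the second WT spleen library (edgeR adjusted p = 0.197 and 0.362) and without the second injured Tg spleen library (edgeR adjusted p = 0.087). Between Tg muscle and injured Tg spleen the libraries overlapped and Trdc was not called (0.55 ± 0.53, edgeR adjusted p = 0.63).

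Trdv4, a variable delta segment 145.6 kb upstream of Trac, followed the same division and also rose in Tg muscle over Tg spleen. The last 200 of its 345 coding bases are shown because it is the delta variable segment with the largest count.
Trdv4: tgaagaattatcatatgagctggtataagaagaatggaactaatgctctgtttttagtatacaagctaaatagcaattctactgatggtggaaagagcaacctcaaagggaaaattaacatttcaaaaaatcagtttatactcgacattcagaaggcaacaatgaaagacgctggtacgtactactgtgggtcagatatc
Trdv4 (54074905 to 54075515) stood at 69.9 and 77.5 CPM in Tg muscle, 17.7 and 24.7 CPM in injured Tg spleen and 21.2 and 28 CPM in uninjured Tg spleen. WT muscle had 0 and 2.09 CPM and WT spleen 0 and 0.211 CPM, the latter a single count. Trdv4 passed the filter on low counts only through the Tg libraries, so its excess over WT Tregs is a description. In muscle the log2 difference between genotypes was 5.84 ± 0.61 (SE, edgeR adjusted p = 0.000496, and 0.147 in a fit of the compared groups only). All 17 WT muscle counts came from the second library, and without it the fitted difference was 11.11. In spleen 188 counts stood against 1, a depth-scaled ratio of 144 with a counting interval of 25.6 to 5737 (edgeR adjusted p = 0.00248, 0.0856 without the second WT spleen library and 0.063 by limma-voom). Tg muscle exceeded injured Tg spleen by 1.80 ± 0.47 (edgeR adjusted p = 0.0353). That call was lost without any one of the 4 libraries compared, at an edgeR adjusted p of 0.118 and 0.168 without the Tg muscle libraries and 0.28 and 0.173 without the injured Tg spleen libraries.

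The other delta segments were sparser. Trdv2-2 stood at 4.86 and 7.60 CPM in Tg muscle and 9.74 and 9.42 CPM in injured Tg spleen, against 0.678 and 0.245 CPM in WT muscle and 3.37 and 0.844 CPM in WT spleen. It did not pass in muscle (edgeR adjusted p = 0.0864) or spleen (edgeR adjusted p = 0.187). Trdv1 was between 0.481 and 5.98 CPM in all 10 Treg libraries, and WT and Tg overlapped. Trdj1 had between 0 and 6 counts per Treg library, Trdj2 between 0 and 3, Trdv2-1 between 0 and 6, and Trdd2 had 2 and 3 counts in injured Tg spleen and none in the other Treg libraries. Trdd1 had no count in any Treg library, and Trdv3 had 2 in a single one. Trdv5 lies on the opposite strand across the end of Trdc (54148662 to 54149294) and had 0 to 5 counts per Treg library. In the stretch they share, reads of the 2 genes cannot be told apart without strand.

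The joining alpha segments next to the delta genes showed the same contrast of genotypes. Traj61 to Traj56 summed to 16.1 and 29.9 CPM in Tg muscle, 9.74 and 28 CPM in injured Tg spleen and 21.5 and 19.0 CPM in uninjured Tg spleen. WT muscle had 0.452 and 0.123 CPM and WT spleen 2.88 and 1.06 CPM, again with no overlap. Traj60 stood at 4.49 and 8.83 CPM in Tg muscle and at 0 in both WT muscle libraries, which makes it at least 12.7-fold higher against a floor of 3 counts per library (edgeR adjusted p = 0.0256). The call was lost without the second WT muscle library (edgeR adjusted p = 0.0539) or the second Tg muscle library (edgeR adjusted p = 0.076), with the compared groups only (edgeR adjusted p = 0.377) and by limma-voom (adjusted p = 0.1). Traj59 and Traj61, at 5.54 and 3.21 CPM on average in Tg muscle, were likewise at 0 in WT muscle, where they were at least 10.6-fold and 6.14-fold lower, and neither passed (edgeR adjusted p = 0.0721 and 0.163). Like Traj60, they passed the filter on low counts only through the Tg libraries, so the excess of each over WT Tregs is a description. Traj59, Traj60 and Traj61 lack the Phe-Gly-any-Gly stretch in the sequences shown above.

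The gamma constant genes examined as marks of gamma-delta T cells were not detected in Tg muscle. The gamma constant genes Tcrg-C1, Tcrg-C2 and Tcrg-C4 had 0 counts in both Tg muscle libraries, where Trdc had 271 and 528 counts. Summed, they stood at 17.4 and 23.1 CPM in injured Tg spleen, 20.5 and 19.7 CPM in uninjured Tg spleen, 2.88 and 12.9 CPM in WT spleen and 1.81 and 0 CPM in WT muscle. Among other markers of these cells, Blk was at 0 in both Tg muscle libraries, Cd163l1 had at most 1 count there and the transcription factor gene Sox13 at most 2. The cytokine gene Il17a had 1 to 12 counts in Tg muscle and 9 to 14 in WT muscle, which overlap. The part of gamma-delta T cells in the delta gene levels was not tested in muscle or in spleen.

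**Figure D4:**
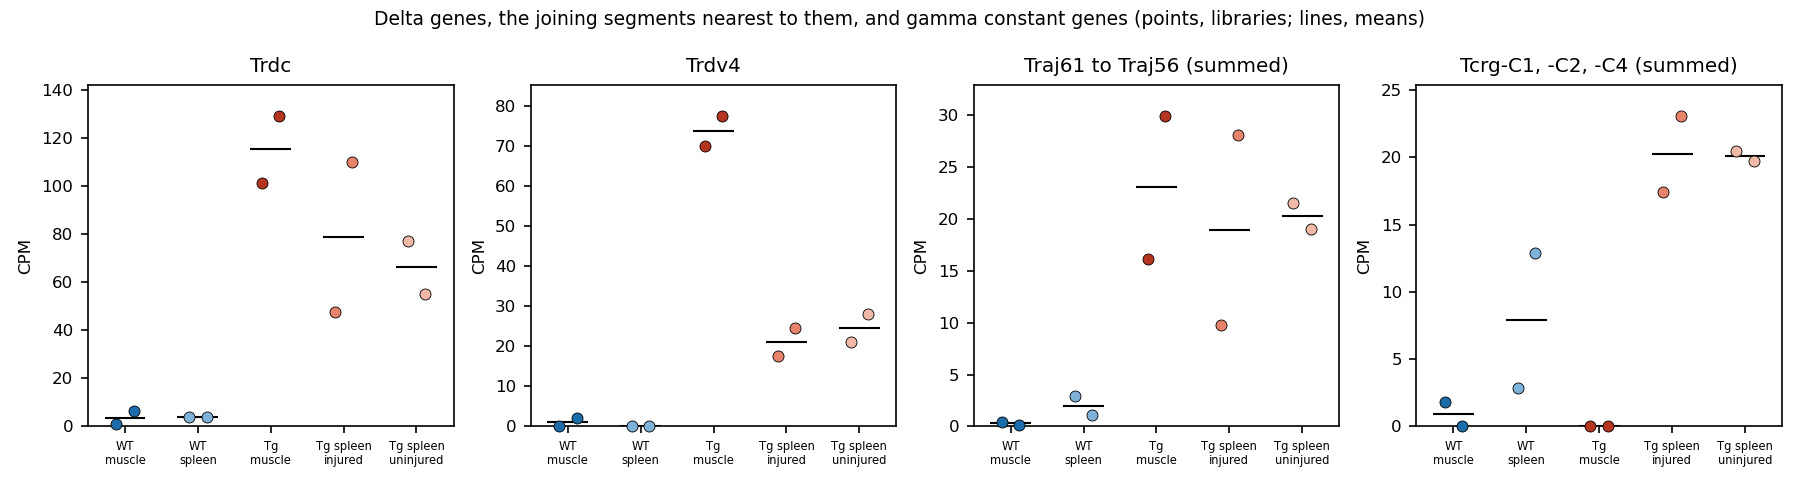
CPM of Trdc, Trdv4, the summed segments Traj61 to Traj56 and the summed gamma constant genes in each Treg library, with points for libraries and lines for means (n = 2). The first 3 panels are high in all Tg groups, while the gamma constant genes are at 0 in both Tg muscle libraries and near 20 CPM in Tg spleen.

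Segments used by invariant alpha chains differed in level. Invariant natural killer T cells join Trav11 to Traj18, and mucosal-associated invariant T cells join Trav1 to Traj33. Trav11 had 1 count in a single WT muscle library and none in the other Treg libraries, Trav11d had none, and the copy Trav11n had at most 4 counts. None of the 25-base windows of Trav11 or Trav11d is unique, so their low counts do not show that the segment is rare, and 53.9% of those of Trav11n are. Traj18 was between 3.80 and 16.8 CPM in every Treg library, and at 8.13% ± 0.60 (SD, n = 2) of Traj counts in WT muscle and 7.65% ± 0.74 in WT spleen it was the leading joining segment of both WT groups. Trav1 varied between libraries of the same group, with 0.452 and 5.40 CPM in WT muscle and 0 and 5.28 CPM in WT spleen. It was at 0 in all Tg libraries but 1, which had 1.36 CPM. Traj33 was between 1.92 and 6.5 CPM in all 10 Treg libraries. The 6 listed invariant natural killer T cell genes summed to 3.80 to 18.8 CPM and the pair Trav1 and Traj33 to 1.92 to 8.44 CPM in Treg libraries.

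In whole muscle the locus was close to silent in WT and carried Trac and Trav9-4 in Tg. Trac stood at 74.1, 73.0 and 52.4 CPM in the Tg libraries and at 0.612, 0 and 0.200 CPM in the WT libraries. Over the groups this was 1306 counts against 5, a depth-scaled ratio of 245 with a counting interval of 105 to 755, and a log2 difference of 7.84 ± 0.41 (SE, n = 3 per group, edgeR adjusted p = 2.31e-08). Trav9-4 stood at 22.7, 34.0 and 21.4 CPM in Tg and at 0, 0.143 and 0 CPM in WT, which was 511 counts against 1 (ratio 479, counting interval 85.5 to 18943, edgeR adjusted p = 7.44e-07). The Treg libraries that chose Trav9-4 are not part of this comparison, but both rows passed the filter on low counts only through the Tg libraries. Other Trav rows made up 4.58%, 4.0% and 2.61% of Trav counts in the Tg libraries (Wilson 95% upper bounds 9.14%, 7.43% and 6.53%), below the 9.35% to 38.4% of the Tg Treg libraries. Their level was 1.09, 1.42 and 0.574 CPM in Tg against 0.153, 1.87 and 2.00 CPM in WT, which overlap. Traj39 had 3, 3 and 2 counts in Tg and 0 in WT. Trdc had 4, 0 and 6 counts in Tg and 0 in WT, and Trdv4 had 0, 0 and 5 in Tg and 3, 0 and 0 in WT.

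The excess of Trac in Tg whole muscle was not matched by the CD3 genes. Cd3d, Cd3e and Cd3g together stood at 4.51, 3.15 and 2.30 CPM in Tg and 0.612, 3.44 and 2.60 CPM in WT, which overlap. Trac counts per summed CD3 count were 16.4, 23.2 and 22.8 in Tg whole muscle, against 1.56 at most in any Treg library. In WT whole muscle the ratio was 1.00, 0 and 0.0769, from 4, 24 and 13 CD3 counts. Foxp3, which marks Tregs, had 0 to 10 counts in Tg and 0 to 4 in WT libraries. Trbc2, the beta constant gene, stood at 7.15, 7.40 and 6.46 CPM in Tg and at 0 in all 3 WT libraries. That gave 0.0964, 0.101 and 0.123 Trbc2 counts per Trac count in Tg whole muscle, while the Tg Treg libraries had between 2.23 and 5.67. The ratio of Trac to Trbc2 in Tg whole muscle therefore lay outside the range of every sorted Treg library. Trav9-4 counts per Trac count were 0.306, 0.466 and 0.408, within or near the 0.269 to 0.437 of Tg Tregs.

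**Figure D5:**
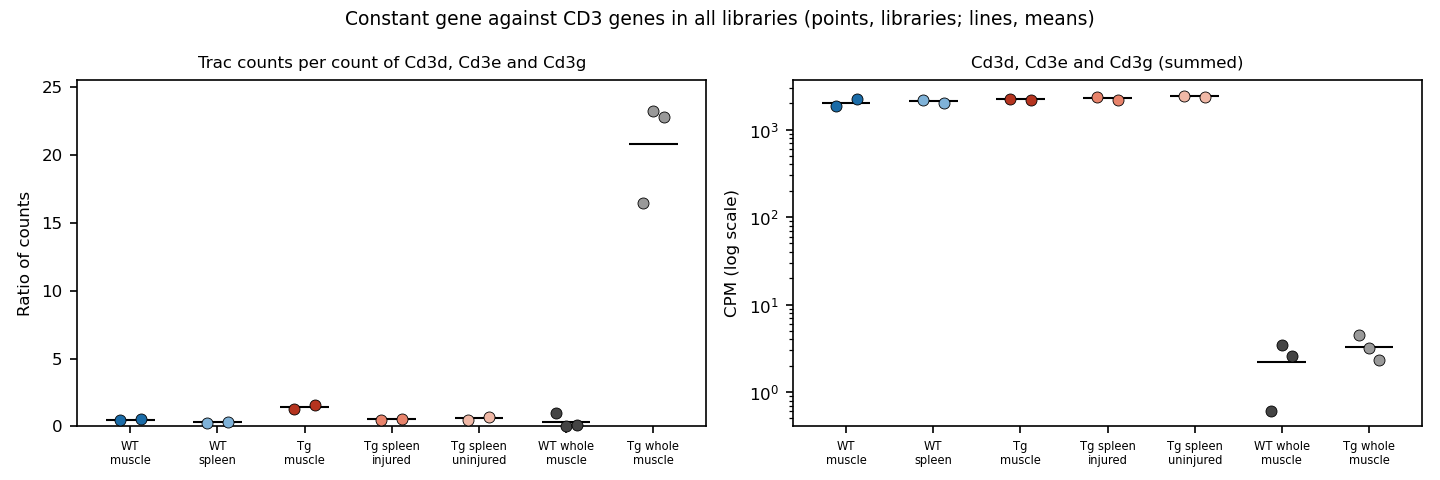
Trac counts per summed count of Cd3d, Cd3e and Cd3g, and the summed CD3 level in CPM (log axis), in all 16 libraries, with points for libraries and lines for means (n = 2 for Treg groups and 3 for whole muscle). Tg whole muscle stands between 16.4 and 23.2 in the ratio, while its CD3 level overlaps with WT whole muscle.

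Among 14 genes of the receptor complex, its coreceptors and its assembly, 9 were tested in Tregs and 3 in whole muscle. Trbc2 rose with genotype, from 532 and 600 CPM in WT muscle to 7079 and 7667 CPM in Tg muscle and from 917 and 839 CPM in WT spleen to 5780 and 5843 CPM in injured Tg spleen. Its log2 differences were 3.70 ± 0.15 in muscle (edgeR adjusted p = 1.05e-09) and 2.73 ± 0.14 in spleen (edgeR adjusted p = 4.56e-08). It was the 1 of 9 pathway genes called in each of those comparisons, where 0.318% and 1.3% of all genes were called. In whole muscle it was the 1 of 3 called, at least 14.1-fold higher in Tg, where 0.0323% of all genes were called. It passed the filter on low counts there only through the Tg libraries. Against WT spleen, Trbc2 fell by 0.63 in WT muscle (SE 0.14, edgeR adjusted p = 0.00589), opposite in sign to Trac. Trbc2 counts per Trac count were 0.582 and 0.513 in WT muscle and 1.45 and 1.38 in WT spleen. Cd247, the zeta signalling chain, was the other of the 9 called in that comparison, where 16.2% of all genes were called. It stood at 569 and 642 CPM in WT muscle against 487 and 447 CPM in WT spleen (log2 difference 0.38 ± 0.12, edgeR adjusted p = 0.0488). Cd247 was not called without the second WT muscle library (edgeR adjusted p = 0.236) or without either WT spleen library (edgeR adjusted p = 0.0781 and 0.24). In Tg muscle against injured Tg spleen 1 of the 9 was called, where 7.38% of all genes were called. This was Trbc1, the other beta constant gene. It fell by 0.46 (SE 0.12, edgeR adjusted p = 0.0346), from 514 and 532 CPM in spleen to 348 and 410 CPM in muscle. Leaving out any one of those 4 libraries ended that call (edgeR adjusted p between 0.0512 and 0.3). The recombination genes stayed at the floor in Tregs, with Rag2 and the pre-TCR gene Ptcra at 0 in all 10 libraries, Rag1 above 0 in a single one and Dntt at no more than 1.03 CPM.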

How the data were processed

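The authors deposited 1 table of whole-number read counts per gene for 16 libraries. Per the submitters' processing notes, reads were aligned with STAR 2.5.4 to mm10 and counted with featureCounts. The strand setting, the annotation and the treatment of reads matching several rows were not given in the sources used here. Oligo(dT)-primed cDNA was amplified by PCR and fragmented by transposon, per the labels' protocols, and such libraries do not mark strand. No label says whether libraries of a group came from separate mice, so each p-value reflects only library-to-library spread, possibly technical.

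Counts were fitted with edgeR 4.0.16 in R 4.3.3 (filterByExpr, TMM, robust glmQLFit, glmQLFTest), with 1 fit for the 10 Treg libraries (13188 genes, 5 residual degrees of freedom) and 1 for the 6 whole muscle libraries (12377 genes, 4 residual degrees of freedom), and Benjamini-Hochberg adjustment over all genes of a fit. The procedure was tested on simulated data. SEs were derived from the test statistic. Group values are TMM-scaled CPM, and spreads are SDs over libraries. Shares, evenness and effective numbers came from raw counts, with thinning as the mean of 100 random draws in Python 3.11.15. Wilson intervals (95%) and floors (3 counts per library) cover counting error only, since amplified reads carry no molecular identifiers.

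Coordinates and sequences are from GENCODE M21. The members and lists were chosen with earlier results of these data known. Named genes were Trac, Trdc, the leading Tg Trav and Traj and its copies, the 5 most used Trav and Traj of 4 groups, called members, delta segments averaging at least 1 count, invariant chain segments and a list of 14 receptor genes. Traj58, Traj59, Traj61, Trdj2, Trdd1, Trdd2, Trdv3 and Trav11n were added after their values were seen. Alternatives were relative log expression scaling, no filter, DESeq2 1.42.0, limma-voom of limma 3.58.1, a replicate block, scaling without TCR and immunoglobulin rows, the compared groups alone and leaving out each library. A gene of the gamma-delta marker list, and sums over that list, are not reported here.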

Additional observations from a re-analysis of the deposited data

Results flagged for a closer look

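The rise of Trav9-4 in muscle over spleen was larger in Tg than in WT Tregs, by 1.65 on the log2 scale (SE 0.24, edgeR quasi-likelihood interaction, adjusted p = 0.0188). It was flagged because the difference between the genotypes' tissue effects was itself tested and passed. Trav9-4 was higher in muscle in both Tg muscle libraries (1209 and 1501 CPM) than in both injured Tg spleen libraries (368 and 397 CPM), while WT muscle (10.4 and 11.7 CPM) and WT spleen (11.1 and 9.08 CPM) overlapped. The test was chosen after the data were seen. Its adjusted p ranged from 3.57e-07 to 0.105 over 12 alternatives. The call was lost without the second WT spleen library (1.81, adjusted p = 0.0581), the first injured Tg spleen library (1.59, adjusted p = 0.105) or the second injured Tg spleen library (1.70, adjusted p = 0.0545). Genotype and the Vβ8 gate changed together, and their parts cannot be told apart.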

How the results depend on the processing

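Calls of Trac in both tissue comparisons, in Tg against WT muscle Tregs and in whole muscle, and of Trav9-4 in the 4 comparisons where it was called, held under every alternative run (its interaction did not, as given above). The count of members called in WT muscle against WT spleen Tregs (4) became 2 with a replicate block, 2 with limma-voom, 1 with the compared groups only and 1 to 6 with a library left out. In Tg against WT muscle Tregs (5) it became 11 with no filter, 10 with DESeq2, 2 with the compared groups only and 3 to 14 with a library left out. In injured Tg against WT spleen Tregs (4) it became 7 with the compared groups only and 1 to 4 with a library left out. The evenness difference between WT muscle and WT spleen (−0.0099) changed sign to 0.000702 with rows named as both Trav and Dv left out and was −0.0279 by the inverse Simpson index. With a library left out it ran from −0.0214 to 0.00151. Leaving out the second WT muscle library gave 0.000874. The causes were not tested. In compared-groups-only fits fewer genes were tested. Deviations of same-numbered libraries from their group means had correlations of −0.042 to 0.0936 in Tregs and −0.0263 to −0.00484 in whole muscle. With 2 libraries per Treg group, both numbers give the same correlation for a pair of groups. Low correlations cannot show whether the numbers pair samples, which stays unknown. The replicate block left the member counts of the other 5 comparisons within 1.5 times, and Trbc2 in whole muscle was no longer called (edgeR adjusted p = 0.06). With the block, edgeR also lost Traj21 (edgeR adjusted p = 0.0568) and Trav13-1 (edgeR adjusted p = 0.0501) between WT tissues. At this depth the filter on low counts left 36 of 60 Traj rows and 45 of 128 Trav rows in the test.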
